A study of Mus musculus with 4 samples.

Results

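A set of genes of the cilium and of the centrosome was followed in neural progenitors labelled wild type or Mcph1 knockout. A table row was taken when its symbol began with Cep, Ift, Bbs, Tctn or Nek and a number, or was Pcnt, Nin, Pcm1, Odf2, Cntrob, Ccp110, Cspp1, Arl13b, Kif7, Ofd1 or Ccdc39; Cep63, Cep135 and Cep152 were left out. The rule uses names and no measured value, and it took 67 of the 11160 features in the table. The members were 11 proteins of the centriole barrel and its cap, 9 of the appendages of the mother centriole, 7 of the pericentriolar material and the linker between centrosomes, and 4 of the centriolar satellites. There were also 13 intraflagellar transport proteins, 7 Bardet-Biedl syndrome proteins, 6 of the transition zone and ciliary shaft, 8 NEK kinases, the abscission factor Cep55 and the motile cilium protein Ccdc39.

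A centrosome is a pair of centrioles set in a protein matrix that nucleates microtubules, and it forms the poles of the mitotic spindle. Outside mitosis the older centriole, marked by its appendages, can dock at the membrane as a basal body and grow a primary cilium, which is built by intraflagellar transport, gated by the transition zone, and serves hedgehog signalling. In the developing cortex the progenitors lining the ventricle carry such a cilium at their apical tip, and mutations in many centrosome genes cause microcephaly in people.

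RNA-seq was performed on 4 libraries from neurospheres, free-floating balls of dividing progenitors, grown from the dorsal telencephalon of C57BL/6J mouse embryos at embryonic day 12.5. Of these, 2 libraries came from wild-type (WT) cultures and 2 from cultures labelled as a full knockout of Mcph1, which encodes microcephalin, a regulator of chromosome condensation. All cultures were expanded in DMEM/F12 with N2, B27, FGF, bFGF and insulin, and no other treatment or allele is named. Each telencephalon was first grown on its own, cultures of 1 genotype were then pooled, and RNA was pooled again within genotype, so a library stands for several embryos and p-values measure the spread between such pools. Libraries were strand-specific, depleted of ribosomal RNA and sequenced in 1 lane. The question was how expression changes on inactivation of Mcph1.

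The unit of level is scaled CPM, counts per 1000000 once the deposited values of the libraries had been put on 1 scale. Log2 fold changes are KO-labelled minus WT from limma on log2(scaled value + 1), with their standard error (SE). Recovered reads per library ranged from 5975471 in KO 2 to 22347416 in WT 2, and the members held 19000 reads in WT 1, 57443 in WT 2, 31881 in KO 1 and 14057 in KO 2. The thinnest member value was 29 reads, so none was near the level of 3 reads (0.137 to 0.533 CPM), which covers counting error only. Mcph1 stood at 21.1 and 21.6 CPM in WT 1 and WT 2 and at 19.5 and 20.3 CPM in KO 1 and KO 2 (log2 fold change -0.10, SE 0.24; 95% interval -0.68 to 0.48; limma adjusted p = 0.922). The deleted part of Mcph1 is not stated, and 1 value per library for the gene does not test the genotype in the labels. This is why the term KO-labelled is used. All 10 radial glia markers looked for were in the table, and none of the 6 microglial and none of the 6 endothelial markers was listed. Library KO 1 stood apart in neuron markers: 14 of 14 listed markers were higher in KO 1 than in KO 2, and their summed level was 993 and 1156 CPM in WT, 2169 in KO 1 and 919 in KO 2.

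No cilium or centrosome member passed the test between the genotypes, whose differences were set against the spread between pools. All 67 passed the filter on low values, and limma called 0 of them at an adjusted p under 0.05, against 0.0% of the 10976 features tested. At an unadjusted p under 0.05 limma and edgeR's quasi-likelihood test each had 1 member, Cep55 (background 7.58% and 7.93%). DESeq2 called 0 members, with 0 at an unadjusted p under 0.05, where it called 0.191% of all features and had 7.28% of them at an unadjusted p under 0.05. Of the members, 36 had a positive and 31 a negative fitted change (51.4% of all features were positive). Their median log2 fold change was 0.03, against 0.01 over all features, but it was -0.04 without KO 1 and -0.01 without WT 2. In size the changes had a median of 0.12 on the log2 scale, against 0.26 over all features. The 95% intervals reached from 0.52 to 1.18 to either side of the fitted log2 fold change, with a median of 0.63.

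**Figure D1:**
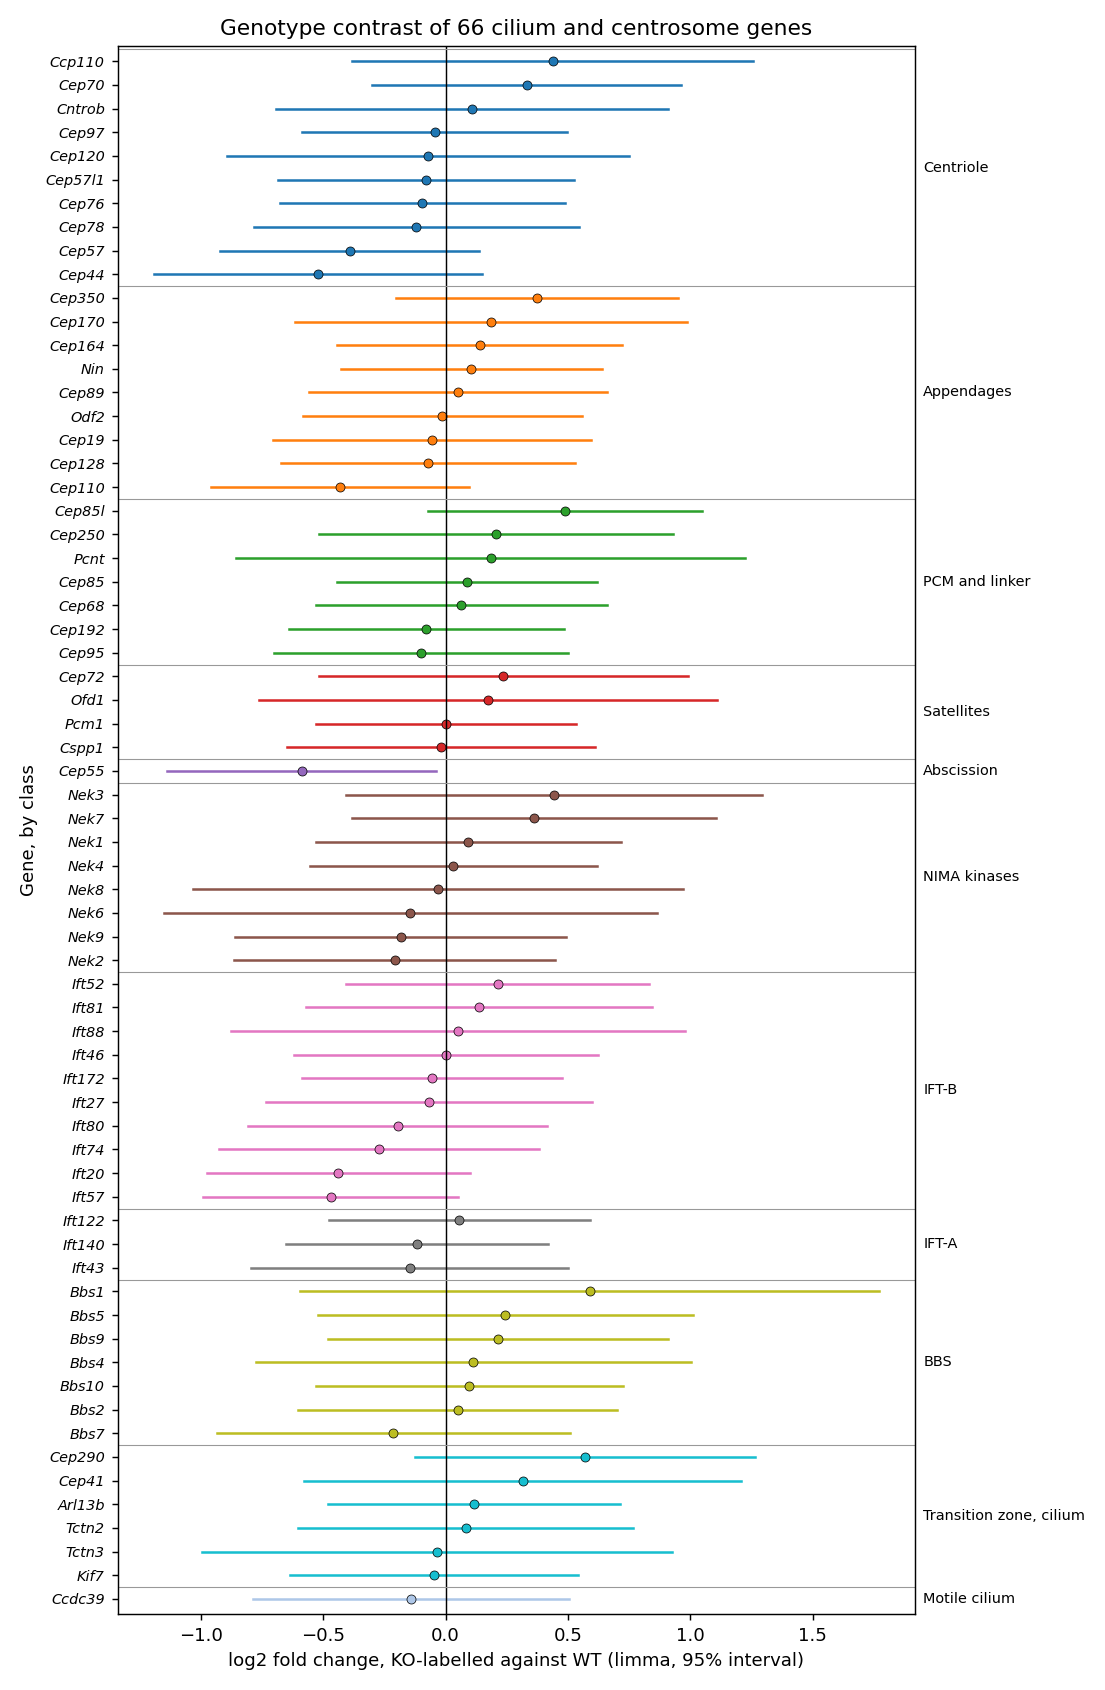
Fitted log2 fold change (KO-labelled minus WT, x axis) of 66 of the 67 members, ordered by role, with bars for the 95% interval of limma. The estimates lie between -0.59 for Cep55 and 0.59 for Bbs1, and 1 interval, that of Cep55, leaves out 0.

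The groups did not overlap for 15 members (22.4%, against 41.1% of all features). Both KO-labelled libraries lay above both WT libraries for 6 members, Cep290, Ift52, Cep85, Cep85l, Cep350 and Bbs10, which is 8.96% of the members against 21.1% of all features. Both lay below for 9 members, Ift20, Cep128, Ift57, Ift140, Cep76, Cep55, Cep110, Cep44 and Cep57, which is 13.4% against 20% of all features. By fitted change, Bbs1 was more than 1.5-fold higher (background 8.4%) and Cep55 more than 1.5-fold lower (background 6.81%).

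Cep55, which recruits the membrane-cutting ESCRT machinery to the midbody at the end of cell division, had the smallest p among the members. It stood at 52.5 and 59.2 CPM in WT 1 and WT 2 and at 35.2 and 39.1 CPM in KO 1 and KO 2. The KO-labelled libraries were both lower and the groups did not overlap. The fitted level was 0.666 of WT (log2 fold change -0.59, SE 0.23; 95% interval -1.14 to -0.04; limma adjusted p = 0.655), so Cep55 did not pass the test over all features. Transcripts of cells in G2 and mitosis lay in the same direction: 18 of 19 listed markers had a negative fitted change, with a median of -0.43 on the log2 scale and summed levels of 3311 and 3996 CPM in WT and 2421 and 2789 CPM in the KO-labelled libraries. None of these 19 passed the limma test, and the part of the cell cycle in the Cep55 value was not tested. In bulk RNA, fewer cells of a kind and less RNA per cell cannot be told apart.

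Members of the intraflagellar transport B complex, which carries cargo towards the ciliary tip, had a median log2 fold change of -0.06, with 4 positive and 6 negative. The median was -0.18 without WT 1 and -0.15 without KO 1. Ift57, a peripheral subunit of the complex, stood at 76.5 and 82.4 CPM in WT 1 and WT 2 and at 56.5 and 58.1 CPM in KO 1 and KO 2 (log2 fold change -0.47 with SE 0.22; limma adjusted p = 0.658). Ift20, a subunit that also works at the Golgi in sorting membrane proteins to the cilium, stood at 51.2 and 48.2 CPM in WT 1 and WT 2 and at 37.8 and 35.6 CPM in KO 1 and KO 2 (log2 fold change -0.44 with SE 0.22; limma adjusted p = 0.671). In both genes the groups were separate, as in 41.1% of all features, with small differences within each genotype. Both were picked for their small p, which favours such a pattern, and neither passed the test. Ift74, which with Ift81 binds tubulin as cargo, stood at 60.7 and 87.2 CPM in WT 1 and WT 2 and at 54.6 and 66.5 CPM in KO 1 and KO 2, and the groups overlapped. Its partner Ift81 was at 34.1 and 44.2 CPM in WT 1 and WT 2 and at 52.3 and 34.8 CPM in KO 1 and KO 2, highest in KO 1. Ift88, the core subunit whose loss abolishes cilia in mice, stood at 18.9 and 14.8 CPM in WT, 24.4 CPM in KO 1 and 12.3 CPM in KO 2. The WT values of Ift88 lay between those of the KO-labelled libraries, and its fitted change was 0.05 (SE 0.38), or -0.44 without KO 1. The other 5 members of the complex, Ift27, Ift46, Ift52, Ift80 and Ift172, had fitted changes between -0.20 and 0.21. Subunits with other symbols are among the other cilium genes given below. Their fitted changes were 0.42 for Rabl5, -0.38 for Hspb11, -0.20 for Traf3ip1, -0.06 for Ttc30b and -0.05 for Cluap1.

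The 3 members of the A complex, which returns cargo to the ciliary base, had a median log2 fold change of -0.12, which was 0.06 without KO 2. Ift140 stood at 46.4 and 44.3 CPM in WT 1 and WT 2 and at 43.5 and 40.2 CPM in KO 1 and KO 2 (log2 fold change -0.12, SE 0.22, 95% interval -0.65 to 0.42). Ift43 was at 20.7 and 20.3 CPM in WT, 21.3 CPM in KO 1 and 16 CPM in KO 2. Ift122 was at 95.2 and 82.6 CPM in WT 1 and WT 2 and at 94.6 and 89.9 CPM in KO 1 and KO 2. Of these 3, only Ift140 had groups that did not overlap, and there by a margin of less than 1 CPM. Subunits of the A complex with other symbols are among the other cilium genes given below. Wdr19, Wdr35 and Ttc21b had fitted changes of 0.20, -0.31 and 0.0058. Both KO-labelled libraries lay above both WT libraries for Wdr19 and below for Wdr35 (21.1% and 20% of all features).

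**Figure D2:**
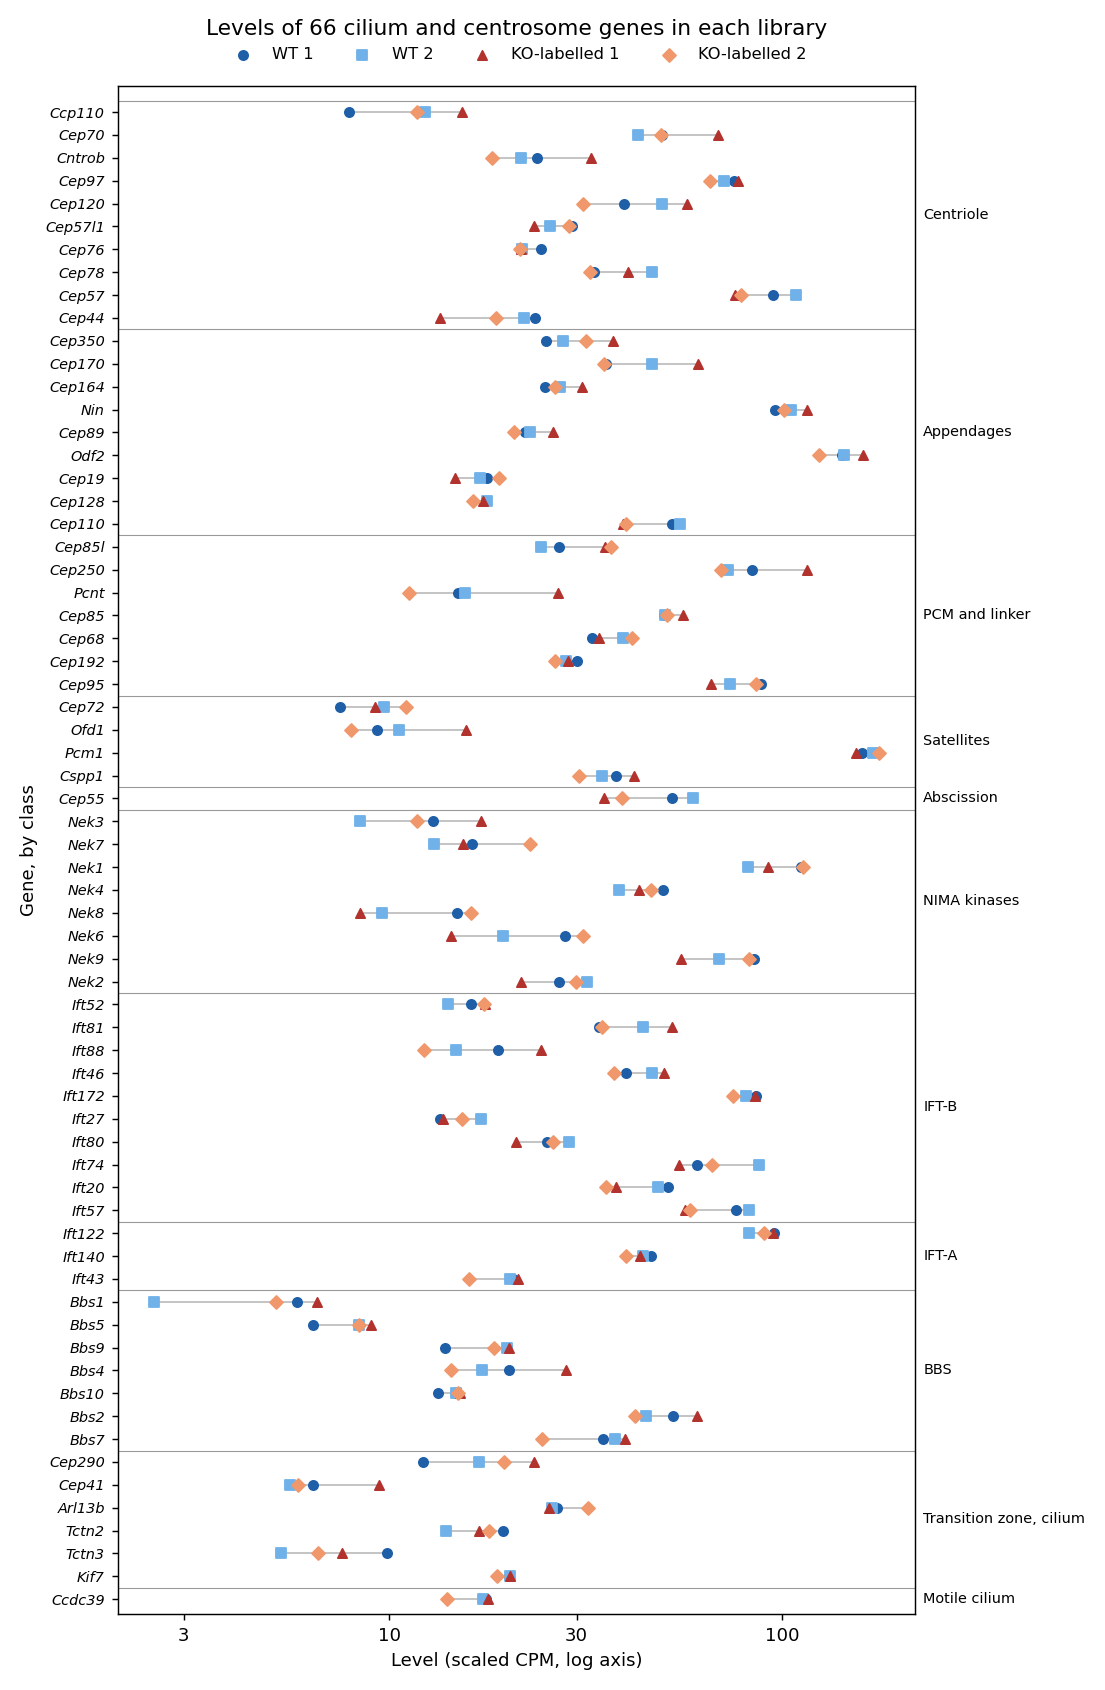
Level of 66 of the 67 members (scaled CPM, log x axis; genes on the y axis, grouped by role), with 1 point per library and a line from the lowest to the highest. Cep55, Ift57 and Ift20 have both KO-labelled points below both WT points, Cep85l has both above, and most members overlap.

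Promoters are shown of the 3 members with the smallest p among those that hold an arm of the X-box, the palindromic motif bound by the RFX factors that drive ciliary genes, and of Cep55 and Nek2, which in human cells are expressed mainly late in the cell cycle. They are windows of 300 bases, from 250 before the start site, in RefSeq's annotation of GRCm38.p6 (55 of 67 members matched). Capitals mark matches on either strand to GTTGCC or GTTACC (a single X-box arm, which is less than a full X-box), CCAAT (the CCAAT box bound by NF-Y) and TTTGAA or TTCGAA (the cell cycle homology region). The Ift57 window (chr16:49699044-49699343, plus strand) holds 3 X-box arms, of which the last pair face each other 1 base apart, and 1 CCAAT match, that of Cep110 (chr2:35109242-35109541, plus strand) 2 X-box arms, and that of Cep85l (chr10:53379834-53380133, minus strand) 1. The Nek2 window (chr1:191821223-191821522, plus strand) holds 2 X-box arms and 2 CCAAT matches, and that of Cep55 (chr19:38054734-38055033, plus strand) 1 match to the cell cycle homology region.
Ift57: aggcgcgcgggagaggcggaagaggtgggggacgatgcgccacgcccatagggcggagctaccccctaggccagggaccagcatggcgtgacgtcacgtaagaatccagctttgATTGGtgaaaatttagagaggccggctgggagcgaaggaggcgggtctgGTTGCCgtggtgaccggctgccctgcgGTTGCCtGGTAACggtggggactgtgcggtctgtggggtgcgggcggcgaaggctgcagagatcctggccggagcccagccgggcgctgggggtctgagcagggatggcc
Cep110: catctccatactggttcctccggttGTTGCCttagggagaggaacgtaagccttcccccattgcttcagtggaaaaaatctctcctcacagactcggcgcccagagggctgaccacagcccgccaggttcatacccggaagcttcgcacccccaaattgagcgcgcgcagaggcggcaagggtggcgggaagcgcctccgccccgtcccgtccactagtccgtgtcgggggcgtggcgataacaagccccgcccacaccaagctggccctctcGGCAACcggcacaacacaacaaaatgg
Cep85l: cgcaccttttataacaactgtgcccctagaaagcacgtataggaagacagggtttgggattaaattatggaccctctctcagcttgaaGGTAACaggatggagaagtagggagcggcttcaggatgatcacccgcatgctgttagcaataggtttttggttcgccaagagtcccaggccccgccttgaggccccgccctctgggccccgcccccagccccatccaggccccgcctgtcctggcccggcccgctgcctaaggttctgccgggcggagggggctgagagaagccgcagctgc
Nek2: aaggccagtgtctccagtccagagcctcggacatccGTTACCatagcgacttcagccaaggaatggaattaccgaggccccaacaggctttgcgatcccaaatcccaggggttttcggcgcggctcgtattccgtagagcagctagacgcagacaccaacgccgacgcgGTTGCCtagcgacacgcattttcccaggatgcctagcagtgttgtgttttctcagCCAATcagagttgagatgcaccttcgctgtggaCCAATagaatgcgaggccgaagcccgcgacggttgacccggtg
Cep55: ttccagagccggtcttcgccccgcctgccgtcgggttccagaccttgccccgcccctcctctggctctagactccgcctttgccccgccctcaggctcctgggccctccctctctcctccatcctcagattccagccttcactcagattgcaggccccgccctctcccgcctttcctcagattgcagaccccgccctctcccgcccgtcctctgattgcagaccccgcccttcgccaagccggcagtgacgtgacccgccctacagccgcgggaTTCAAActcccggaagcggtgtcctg
An X-box arm stood in 25 of the 55 member windows (45.5%), against 18% of 7738 windows of genes in the table and 18.7% of all 27025 windows. CCAAT stood in 26 member windows (47.3%, against 39.7% and 37.9%) and the cell cycle letters in 9 (16.4%, against 13.6% and 19.4%). Of the members with groups that did not overlap and with a window, an X-box arm was in 5 of 8 windows of lower members and in 2 of 5 windows of higher members. Such matches describe the letters in these windows and show no binding.

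Proteins of the centriole barrel and cap had a median log2 fold change of -0.07, with 4 positive and 7 negative. The median was -0.16 without KO 1, 0.07 without KO 2, -0.0038 without WT 1 and -0.02 without WT 2. Cep44, needed for a new centriole to mature into a centrosome, stood at 23.5 and 22.1 CPM in WT 1 and WT 2 and at 13.4 and 18.7 CPM in KO 1 and KO 2 (log2 fold change -0.52 with SE 0.28; limma adjusted p = 0.671). Cep57, which ties the centriole to its surrounding matrix, stood at 94.7 and 108 CPM in WT 1 and WT 2 and at 76.0 and 78.4 CPM in KO 1 and KO 2 (log2 fold change -0.39 with SE 0.22; limma adjusted p = 0.675). Both lay lower in both KO-labelled libraries, Cep44 most in KO 1, without which its log2 fold change was -0.29. Ccp110, whose protein caps the older centriole until a cilium grows, stood at 7.91 and 12.3 CPM in WT 1 and WT 2 and at 15.3 and 11.7 CPM in KO 1 and KO 2. Here the WT libraries differed from each other by more than 1.5-fold and the groups overlapped (log2 fold change 0.44, SE 0.34, or 0.12 without WT 1). Cep97, the partner of Ccp110 in the cap, was at 75.4 and 71.2 CPM in WT 1 and WT 2 and at 77.2 and 65.4 CPM in KO 1 and KO 2, with a fitted change of -0.04. Cep76, which restrains repeated duplication, had a fitted change of -0.09, and the elongation factor Cep120 and the daughter centriole protein Cntrob were each more than 1.5-fold higher in KO 1 than in KO 2. Of the others, Cep57l1, Cep70 and Cep78 had fitted changes between -0.12 and 0.33.

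Among the appendage proteins of the mother centriole, 5 had a positive and 4 a negative fitted change, with a median of 0.05, which was -0.11 without KO 1, 0.20 without KO 2 and -0.01 without WT 1. Cep110 (centriolin, now named Cntrl), a subdistal appendage protein that also acts at the midbody, stood at 52.5 and 54.8 CPM in WT 1 and WT 2 and at 39.3 and 40.2 CPM in KO 1 and KO 2 (log2 fold change -0.43 with SE 0.22; limma adjusted p = 0.671). Cep350, a large centriolar protein that recruits Cep19, lay the other way, at 25.1 and 27.8 CPM in WT 1 and WT 2 and at 37.0 and 31.6 CPM in KO 1 and KO 2 (log2 fold change 0.37 with SE 0.24; limma adjusted p = 0.701). In both genes, also picked for a small p, the groups were separate, and neither passed the test. Odf2, on which the appendages are built, was at 142 and 144 CPM in WT, 161 CPM in KO 1 and 124 CPM in KO 2, and both WT values lay between the KO-labelled ones. Cep164, the distal appendage protein that docks the centriole at the membrane, was at 24.8 and 27.2 CPM in WT 1 and WT 2 and at 31.0 and 26.5 CPM in KO 1 and KO 2. Cep170 was more than 1.5-fold higher in KO 1 than in KO 2. The microtubule anchor Nin and the appendage proteins Cep89, Cep128 and Cep19 had fitted changes between -0.07 and 0.11.

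Of the 7 proteins of the pericentriolar material and the linker, 5 had a positive fitted change, with a median of 0.09, which was 0.02 without KO 1 and 0.16 without KO 2. Cep85l, a pericentriolar protein whose mutation in people causes lissencephaly, stood at 27.1 and 24.3 CPM in WT 1 and WT 2 and at 35.4 and 36.6 CPM in KO 1 and KO 2 (log2 fold change 0.49 with SE 0.23; limma adjusted p = 0.659). Both KO-labelled libraries were higher, and close to each other. Pcnt, the scaffold that holds the gamma-tubulin complexes in the matrix, stood at 15.0 and 15.5 CPM in WT, 26.9 CPM in KO 1 and 11.2 CPM in KO 2. The WT libraries were nearly level while KO 1 was more than 2-fold above KO 2, and the fitted change of 0.18 (SE 0.43) became -0.44 without KO 1. Cep250, the anchor of the linker between centrosomes, followed the same order at 83.8 and 72.8 CPM in WT, 116 CPM in KO 1 and 70.0 CPM in KO 2. Cep68, which also lies in the linker, Cep85, an inhibitor of Nek2, Cep192, which recruits matrix proteins for mitosis, and Cep95 had fitted changes between -0.10 and 0.09.

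The 4 satellite proteins had a median log2 fold change of 0.09, which was -0.08 without KO 1, 0.05 without WT 1, and 0.16 without KO 2 or without WT 2. Pcm1, the scaffold of the granules that ferry proteins to the centrosome, was nearly level between the groups, at 159 and 171 CPM in WT 1 and WT 2 and at 154 and 177 CPM in KO 1 and KO 2, with a fitted change of 0.0015 (95% interval -0.53 to 0.53). Ofd1, a satellite and centriole protein named for oral-facial-digital syndrome, stood at 9.30 and 10.6 CPM in WT, 15.6 CPM in KO 1 and 8 CPM in KO 2. Its KO-labelled values lay on either side of WT. Cep72 and Cspp1 had fitted changes of 0.24 and -0.02.

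Bardet-Biedl syndrome proteins form the BBSome, a coat that moves membrane receptors out of the cilium, or help to assemble it. Of the 7 members, taken by a symbol with Bbs and a number, 6 had a positive fitted change, with a median of 0.11, and none passed the test. The median was 0.0023 without WT 2, 0.05 without WT 1 and 0.30 without KO 2. All 7 were higher in KO 1 than in KO 2 (51.3% of all features were), with a median difference of 0.34 on the log2 scale. Genes tied to the BBSome under other symbols are among the other cilium genes given below. Mkks, Arl6, Ttc8 and Lztfl1 had fitted changes of -0.63, -0.38, -0.04 and 0.23. Their differences KO 1 minus KO 2 were -0.28, -0.15, 0.62 and 0.77, so the order of the 7 was not shared by Mkks and Arl6. Bbs1, the subunit that binds the recruiting GTPase, stood at 5.83 and 2.51 CPM in WT 1 and WT 2 and at 6.54 and 5.15 CPM in KO 1 and KO 2 (log2 fold change 0.59 with SE 0.49; limma adjusted p = 0.757). It had the highest fitted change of the members, on 29 to 77 reads per library, but WT 1 lay between the KO-labelled libraries and without WT 2 the fitted change was -0.0053. Bbs4 stood at 20.1 and 17.2 CPM in WT, 28.2 CPM in KO 1 and 14.4 CPM in KO 2. Bbs7, a core subunit, was at 35.0 and 37.6 CPM in WT, 39.9 CPM in KO 1 and 24.5 CPM in KO 2. In both of these the KO-labelled libraries lay on either side of WT and more than 1.5-fold apart. The subunits Bbs2, Bbs5 and Bbs9 and the chaperonin-like Bbs10 had fitted changes between 0.05 and 0.24.

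Transition zone and ciliary shaft proteins had 4 positive and 2 negative fitted changes, with a median of 0.10, which was 0.33 without WT 1, 0.03 without WT 2 and 0.05 without either KO-labelled library. Cep290, which links the membrane to the microtubules in the gate at the ciliary base, stood at 12.2 and 16.9 CPM in WT 1 and WT 2 and at 23.4 and 19.6 CPM in KO 1 and KO 2 (log2 fold change 0.57 with SE 0.29; limma adjusted p = 0.671). Both KO-labelled libraries were above both WT libraries, with WT 1 lowest; without WT 1 the log2 fold change was 0.34. Cep41, needed for glutamylation of ciliary tubulin, was at 6.39 and 5.58 CPM in WT, 9.43 CPM in KO 1 and 5.87 CPM in KO 2. Arl13b, the GTPase of the ciliary membrane used as a marker of cilia, was at 26.8 and 25.9 CPM in WT 1 and WT 2 and at 25.5 and 32.0 CPM in KO 1 and KO 2, highest in KO 2. Tctn3, of the gate's tectonic proteins, stood at 9.86 and 5.30 CPM in WT 1 and WT 2 and at 7.56 and 6.58 CPM in KO 1 and KO 2, so that its spread within WT enclosed both KO-labelled values. Kif7, the kinesin of hedgehog signalling at the ciliary tip, had a fitted change of -0.05 (95% interval -0.63 to 0.54), and Tctn2 one of 0.08. Ccdc39, which sets the spacing of dynein arms in motile cilia, was at 17.6 and 17.3 CPM in WT 1 and WT 2 and at 17.8 and 14 CPM in KO 1 and KO 2. Of 20 other markers of cells with many motile cilia, 2 were listed in the table, Foxj1, the master regulator of motile cilia, at 4.16 to 8.71 CPM and the radial spoke gene Rsph9 at 14.4 to 26.8 CPM, both highest in KO 2.

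The NEK kinases had fitted changes that were positive for 4 and negative for 4, with a median of 0.0011, which was 0.21 without KO 1, 0.25 without WT 1, -0.25 without KO 2 and -0.14 without WT 2. In size the difference between KO 1 and KO 2 had a median of 0.55 on the log2 scale and the genotype change one of 0.16, where all members had 0.30 and 0.12 and all features 0.34 and 0.26. Between libraries of 1 group, 7 of 8 were lower in KO 1 than in KO 2 (51.3% of all features were higher). In WT, 7 of 8 were higher in WT 1 than in WT 2 (50% of all features were). The median difference was -0.51 for KO 1 minus KO 2 and 0.40 for WT 1 minus WT 2 on the log2 scale. Across all features these differences correlated at -0.303, so an opposite order in the groups was not particular to the NEK genes. Nek6, a kinase of the mitotic spindle activated by Nek9, stood at 28 and 19.5 CPM in WT, 14.4 CPM in KO 1 and 31.1 CPM in KO 2. Nek8, a kinase of the cilium whose mutation gives mice cystic kidneys, stood at 14.9 and 9.56 CPM in WT, 8.41 CPM in KO 1 and 16.2 CPM in KO 2. Nek7, the close relative of Nek6, stood at 16.2 and 13 CPM in WT, 15.4 CPM in KO 1 and 22.8 CPM in KO 2. KO 2 was the highest library in all of these, and KO 1 the lowest for Nek6 and Nek8. Nek1 and Nek4 shared the order of KO 2 above KO 1 and WT 1 above WT 2, and so did Nek9, at 84.8 and 69.1 CPM in WT, 55.1 CPM in KO 1 and 82.5 CPM in KO 2. Nek2, which dissolves the linker at the onset of mitosis, stood at 27.1 and 31.9 CPM in WT 1 and WT 2 and at 21.7 and 29.9 CPM in KO 1 and KO 2, and Nek3 alone was higher in KO 1 than in KO 2. Astrocyte markers followed the same order as most NEK genes: 5 of 5 listed were lower in KO 1 than in KO 2 and higher in WT 1 than in WT 2, with summed levels of 1655 and 669 CPM in WT, 592 CPM in KO 1 and 1136 CPM in KO 2. Their part in the NEK values was not tested.

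**Figure D3:**
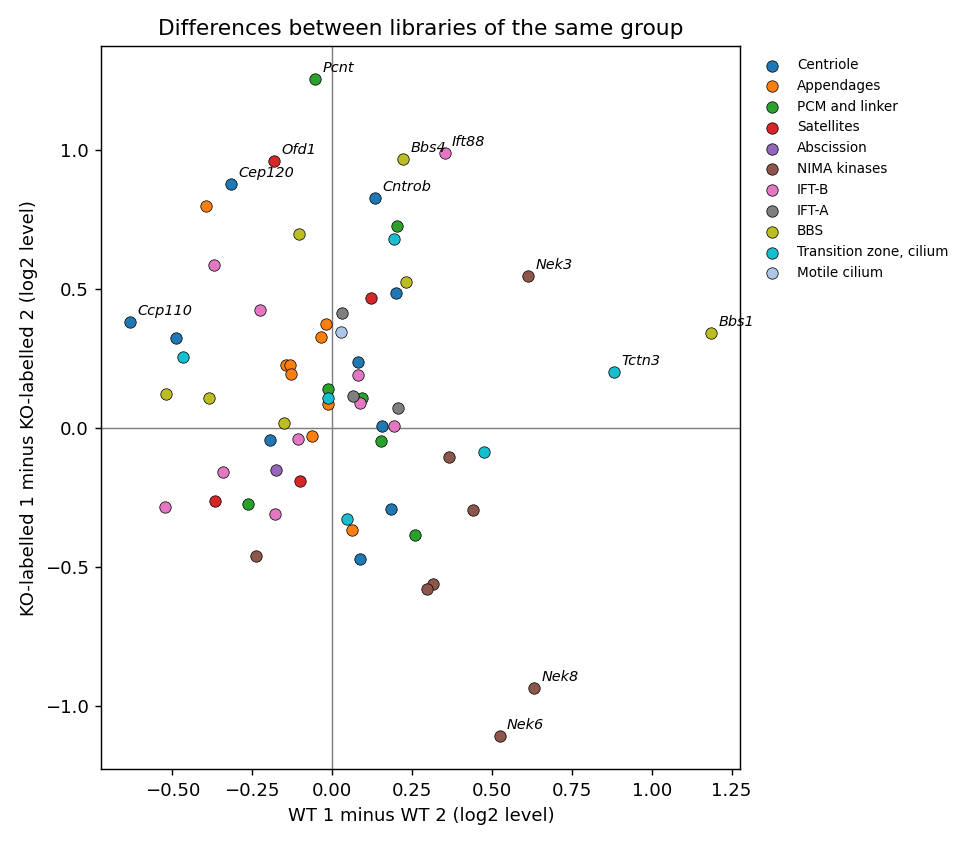
Difference between the libraries of each group for 66 of the 67 members, WT 1 minus WT 2 on the x axis and KO-labelled 1 minus KO-labelled 2 on the y axis (log2 levels), coloured by role. Points of the NEK kinases lie mostly at the lower right, and those of the 7 Bardet-Biedl members all lie above 0 on the y axis.

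KO 1 lay above KO 2 for 43 of the 67 members (64.2%, against 51.3% of all features). The difference KO 1 minus KO 2 also ran with transcript length. Spearman's rho was 0.176 over all features with a length and 0.098 over the members, whose median length was 3861 bases against 3174. The part of length in this excess was not tested. KO 1 was the highest of the 4 libraries for 33 members (49.3%, against 29.0% of all features), and KO 2 was the lowest for 25 (37.3%, against 27.4%). More than 1.5-fold, 11 members were higher in KO 1 than in KO 2 (16.4%, against 13.2% of all features) and 2 were lower (2.99%, against 13.8%). The 11 were Bbs4, Bbs7, Cep120, Cep170, Cep250, Cep41, Cntrob, Ift81, Ift88, Ofd1 and Pcnt, and the 2 were Nek6 and Nek8. More than 2-fold, Pcnt was the 1 member higher in KO 1 (background 5.17%) and Nek6 the 1 member lower (background 4.82%; 9.99% in either direction). Between the WT libraries Bbs1 was the 1 member more than 2-fold apart (background 4.75%). More than 1.5-fold, Bbs1, Nek3, Nek8 and Tctn3 were higher in WT 1 than in WT 2 (background 10.2%) and Ccp110 was lower (background 7.08%). In size the differences had a median of 0.30 on the log2 scale between KO 1 and KO 2 against 0.34 over all features, and of 0.19 between WT 1 and WT 2 against 0.27. KO 1 is also the library with the highest neuron markers, whose median lay 1.47 above the WT mean on the log2 scale in KO 1 and -0.20 from it in KO 2, and with the lowest summed radial glia markers, at 12975 and 13284 CPM in WT, 6340 CPM in KO 1 and 9094 CPM in KO 2. Most of that sum comes from Fabp7 and Vim (means of 3744 and 4022 CPM): the median of the 10 radial glia markers lay -0.24 from the WT mean in KO 1 and -0.04 in KO 2, and the fitted change was positive for 4 of them, Pax6, Prom1, Slc1a3 and Notch1. Summed oligodendrocyte markers (7 of 7 listed) were at 1018 and 994 CPM in WT, 677 CPM in KO 1 and 974.6 CPM in KO 2. The part of these cell types in the members' values was not tested.

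Per kilobase of transcript, the members ranged from 0.894 to 37.9 CPM, with a median of 7.81 against 11.6 over all features with a length. Ift20, Odf2 and Cep57 were the highest, at 37.9, 36.1 and 35.4 CPM per kilobase, and Bbs1, Ccp110 and Pcnt the lowest, at 0.894, 1.70 and 1.84. Class medians over the members were 3.51 CPM per kilobase for the transition zone and shaft, 5.44 for the satellites, 5.47 for the Bardet-Biedl genes and 6.41 for the appendages. They were 7.34 for the NEK kinases, 7.70 for the matrix and linker, 9.74 for the centriole, 14.4 for the B complex of intraflagellar transport and 22 for the A complex. The last rests on 3 members. Wdr19, Wdr35 and Ttc21b, subunits of the A complex under other symbols, were lower, at 5.91, 7.09 and 8.49.

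The genotype contrast ran with transcript length, in the members as in the whole table. Spearman's rho between length and log2 fold change was 0.293 over the 67 members and 0.284 over 9837 features, a description across genes that share the 4 libraries. Members of up to 3000 bases had a median log2 fold change of -0.07 (23 members, 8 positive), those from 3000 to 5000 bases 0.05 (23 members, 14 positive), and longer ones 0.11 (21 members, 14 positive). Over all features the medians were -0.10, 0.03 and 0.16. With the trend with length and GC content removed, the members' median was -0.03. Spearman's rho with length was then -0.0040 over all features but -0.217 over the members, so among them the trend was reversed. Shifts of long members to negative values lie in the direction of that reversal. The fitted change was then -0.46 for Cep55, -0.35 for Ift57, -0.63 for Cep110, 0.43 for Cep85l and 0.51 for Cep290, while those of the short genes Ift20, Cep44 and Cep57 were -0.22, -0.30 and -0.21, that of Cep350 was 0.10, and those of Pcnt and Cep250 turned negative, at -0.20 and -0.17. Medians turned negative for the appendages (-0.13), the matrix and linker (-0.04) and the NEK kinases (-0.07). They stayed positive for the Bardet-Biedl genes (0.21), the transition zone and shaft (0.11) and the satellites (0.09). Those of the centriole (-0.10) and of the A (-0.10) and B (-0.07) complexes stayed negative.

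**Figure D4:**
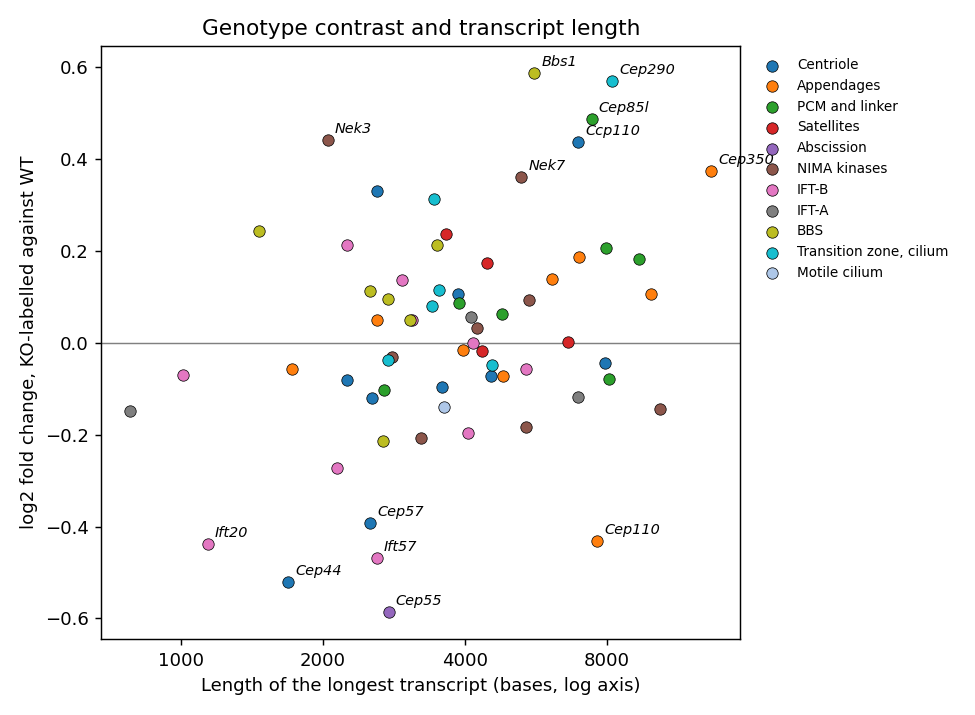
Fitted log2 fold change (KO-labelled minus WT, y axis) against the length of the longest transcript (bases, log x axis) for 66 of the 67 members, coloured by role. Short members lie more often below 0 and long ones above it, with Cep110 a long gene among the low values and Ift20 and Cep44 short ones.

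Other genes of the same structures, chosen by their known roles, also gave no call by limma, edgeR's quasi-likelihood test or DESeq2. Of 58 other cilium genes, 44 were in the table, 22 with a positive and 22 with a negative fitted change, and their median was -0.0098. Wdr34, a dynein chain of the retrograde motor, stood at 6.52 and 6.31 CPM in WT 1 and WT 2 and at 12.7 and 11.4 CPM in KO 1 and KO 2 (log2 fold change 0.90 with SE 0.29; limma adjusted p = 0.655). Mkks, a chaperonin-like protein that helps to assemble the BBSome, stood at 61.9 and 61.0 CPM in WT 1 and WT 2 and at 36.0 and 43.9 CPM in KO 1 and KO 2 (log2 fold change -0.63 with SE 0.23; limma adjusted p = 0.655). The groups were separate in both. Rpgrip1l, of the transition zone, had a log2 fold change of 0.44. Of 43 other centrosome genes, 39 were in the table, 13 with a positive and 26 with a negative fitted change, and their median was -0.10. Haus1, of the augmin complex that branches spindle microtubules, stood at 36.2 and 30.2 CPM in WT 1 and WT 2 and at 16.1 and 19.9 CPM in KO 1 and KO 2 (log2 fold change -0.88 with SE 0.26; limma adjusted p = 0.655). Haus4, of the same complex, had a log2 fold change of -0.66, and Cetn2, a centrin of the centriole, and Fgfr1op, a partner of Cep350, had one of -0.56 each. With the length and GC trend removed, Haus1 had -0.57 and Cetn2 -0.22. Cetn2 had -0.23 without KO 1 and -0.89 without KO 2, and Fgfr1op -0.79 and -0.32. Both KO-labelled libraries lay below both WT libraries for 12 of the 39, these 4 included, and above for 5, namely Crocc, Poc1b, Tubgcp6, Tubgcp2 and Cdk5rap2 (20% and 21.1% of all features). None passed the test.

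Exons of 18 members overlap another gene in GENCODE M21, 17 of them on the opposite strand. For 5, Ccdc39, Cep290, Kif7, Nek6 and Ofd1, the overlapping gene is listed in the table, on the opposite strand in each case. Libraries were strand-specific, but whether counting used the strand is not given in the sources used here. These values may include reads of the neighbour.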

How the data were processed

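The authors' deposited table holds 1 value per gene feature in each of 4 RNA-seq libraries, 2 WT and 2 labelled Mcph1 KO. The deposited values are a signal, read counts divided by 1 factor per library (0.733, 0.873, 1.64 and 0.957 for WT 1, WT 2, KO 1 and KO 2): in every library 100% of values were whole multiples of 1 step within 0.01 of a step, so whole reads were recovered, 7109365, 22347416, 10936719 and 5975471 in the same order. The submitters' processing notes name STAR 2.3.0, SAMtools 0.1.19, Picard 1.119, DESeq 1.12.1 and FastQC 0.10.1 without a role for any. The build, the annotation, how reads were counted and how rows were filtered are each not given in the sources used here.

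Values were scaled by TMM (edgeR 4.0.16) and filtered on low values (filterByExpr, minimum count 10), which left 10976 features. A limma 3.58.1 fit with a mean-variance trend in R 4.3.3 was made on log2(scaled value + 1), two-sided, with Benjamini-Hochberg adjustment over all 10976 and a threshold of 0.05. That scale understates changes of low genes. The fit was also run on simulated data, with no outcome given here. CPM is the scaled value over the mean scaled total. The members and gene lists were chosen with earlier results of these data known. Genes named with full values are Mcph1, the 3 members of each role with the smallest p, those that differ most between libraries of 1 group, the highest and lowest per kilobase, and the leading genes of each list; other members are given as well, except that the values of 1 member and of 1 gene of another list are not reported here, though both stay in all counts and medians. Length and GC content came from the longest GENCODE M21 transcript (67 of 67 members, 89.6% of tested features), coding ones preferred. Alternatives were other scalings, filters and pseudocounts, edgeR's quasi-likelihood test, DESeq2 1.42.0 and limma-voom on recovered reads, leaving out each library, the replicate number as a block, and removal of the length and GC trend.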

Additional observations from a re-analysis of the deposited data

How the results depend on the processing

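Under all 16 alternatives 0 members were called. The count of all features called was 0 and became 6 with values as deposited and 21 with DESeq2, with a range of 0 to 176 when 1 library was left out (24 without KO 1 and 176 without KO 2). A group left with 1 library is there assumed to vary like the other. The members' median log2 fold change was 0.03 and became -1.24 with values as deposited, where the median of all features was -1.25, and ranged from -0.041 to 0.080 when 1 library was left out (-0.041 without KO 1). Members with groups that did not overlap numbered 15 and became 52 with values as deposited, and 31 to 54 when 1 library was left out, as fewer values make separation easier. The replicate numbers in the labels are shared by the groups with no word on a common litter or batch, and same-numbered libraries did not deviate together: across features the difference WT 1 minus WT 2 correlated with KO 1 minus KO 2 at -0.303. With the replicate number as a block, 0 features and 0 members were called and the members' median was 0.03; groups that do not overlap have no blocked value. Of the named genes' values under the alternatives, 831 kept direction and side of the threshold, 4 passed it (Fabp7 with DESeq2; Syt1, Celf4 and Pdgfra without KO 2), and 61 changed sign, of which 24 did so with values as deposited, as the whole table shifted: Nek7 (-0.90), Cep290 (-0.70), Pcnt (-1.08), Cep72 (-1.03), Ift88 (-1.21), Arl13b (-1.15), Rsph9 (-0.85), Aqp4 (-0.31), Bbs1 (-0.66), Bbs5 (-1.01), Cep250 (-1.07), Wdr34 (-0.36), Ift122 (-1.21), Cep41 (-0.94), Ccp110 (-0.83), Nek3 (-0.82), Rpgrip1l (-0.82), Bbs9 (-1.05), Cep164 (-1.13), Bbs4 (-1.15), Ofd1 (-1.09), Foxj1 (-0.70), Cep85l (-0.78) and Cep350 (-0.90). With upper quartile scaling the sign changed for Cspp1 (0.023), Nek8 (0.011), Tctn3 (0.0043) and Odf2 (0.026), with edgeR's quasi-likelihood test for Cspp1 (0.0064) and Nek8 (0.0047), with DESeq2 for Nek8 (0.00076), and with limma-voom for Cspp1 (0.015) and Tctn3 (0.11). With the length and GC trend removed it changed for Pcnt (-0.20), Ift43 (0.077), Cep250 (-0.17), Ift122 (-0.10) and Cep164 (-0.18). When 1 library was left out, log2 fold changes ranged from -0.25 to 0.22 for Cspp1, -0.50 to 0.44 for Nek8, -0.48 to 0.41 for Tctn3, -0.70 to 0.41 for Nek6, -0.047 to 0.47 for Bbs9, -0.44 to 0.54 for Ift88, -0.0053 to 1.18 for Bbs1, -0.046 to 0.16 for Ift122, -0.44 to 0.023 for Nek2, -0.44 to 0.81 for Pcnt, -0.16 to 0.57 for Cep250, -0.025 to 0.65 for Cep41, -0.37 to 0.60 for Bbs4, -0.31 to 0.65 for Ofd1, -0.35 to 0.059 for Ift43, -0.048 to 0.28 for Arl13b, -0.20 to 0.17 for Odf2 and -0.31 to 0.032 for Ccdc39. The cause of these changes was not tested. Depth limits Bbs1, Cep41, Tctn3, Ofd1 and Bbs5 most, with 29 to 46 reads in their thinnest library.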
